A study of Mus musculus with 2 samples.

Results

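10 genes of antioxidant defence and iron handling were followed in single cells from the inflamed mouse eye: Hmox1, Slc7a11, Gclm, Srxn1, Txnrd1, Prdx1, Prdx6, Sod2, Fth1 and Ftl1. They were taken by gene symbol, and all 10 were found among the 31053 genes of the feature tables. On GRCm38 (GENCODE) all are protein-coding, Hmox1 at chr8:75093621-75100589, Prdx6 at chr1:161240112-161251219, Sod2 at chr17:13006846-13040063, Fth1 at chr19:9980598-9985098 and Ftl1 at chr7:45457944-45459884, and the other 5 are located beside their promoters. The cells came from C57BL/6 mice whose eyes had been injected with zymosan, a yeast cell wall preparation, so inflammation was common to both groups. 1 library, aCXCR2, came from mice treated with antiserum to CXCR2, a chemokine receptor of neutrophils, and the other, NRS, from mice treated with NRS. For droplet capture, cells of the vitreous were combined with a wash of the retinal surface and selected on Ly6G magnetic beads. Age, and the number of mice behind each library, are not given in the sources used here. Each group is 1 library, so no difference has a replicate check, no test was made, and the 95% intervals cover counting error only.

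Heme oxygenase-1, the product of Hmox1, breaks heme down and releases iron, which the ferritin shell built of heavy (Fth1) and light (Ftl1) chains then stores. Slc7a11 imports cystine in exchange for glutamate, and Gclm is the modifier subunit of the enzyme that starts glutathione synthesis. Thioredoxin reductase 1 (Txnrd1) and the peroxiredoxins Prdx1 and Prdx6 reduce peroxides or keep the proteins that do so reduced, sulfiredoxin (Srxn1) repairs over-oxidised peroxiredoxins, and Sod2 is the manganese superoxide dismutase of mitochondria. Many of these genes are known targets of the transcription factor NRF2 (Nfe2l2), which binds antioxidant response elements with small Maf partners, while BACH1 represses Hmox1 and the ferritins.

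The antioxidant response element core was looked for in the RefSeq promoter table (GRCm38.p6), which holds a window for 8 of the 10 genes. TGANNNNGC, where N is any base, was searched on both strands in the 250 bases before each annotated start, and it was present for 5 of the 8 genes. The same letters were present for 38.7% of the 27025 genes in that table. The stricter form TGACNNNGC, whose matches are a subset, was present for 3 of the 8 genes (Gclm, Txnrd1 and Prdx1), against 11.5% of all genes. Srxn1 had 3 matches, on its + strand beginning 45 bases before the start and on the opposite strand beginning 57 and 158 bases before it. Slc7a11 had 2, beginning 45 and 97 bases before its start. The windows of Sod2, Fth1 and Ftl1 did not hold these letters. A match describes the sequence and is not a bound site. Of Txnrd1's 3 annotated windows, 2 held the core. For each of the 5 genes 1 window that held it is shown, so that its number and spacing can be compared, with matches on either strand in capitals and without bases that lie in an annotated exon. They are at chr2:152105274-152105515, + strand (Srxn1), chr3:50443615-50443863, - strand (Slc7a11), chr3:122245307-122245556, + strand (Gclm), chr10:82859009-82859178, + strand (Txnrd1) and chr4:116685349-116685543, + strand (Prdx1).

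Srxn1: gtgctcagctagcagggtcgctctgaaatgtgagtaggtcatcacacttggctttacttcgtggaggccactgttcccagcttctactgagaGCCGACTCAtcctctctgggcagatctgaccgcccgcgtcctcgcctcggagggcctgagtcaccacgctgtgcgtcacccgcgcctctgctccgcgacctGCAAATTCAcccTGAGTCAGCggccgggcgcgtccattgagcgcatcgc
Slc7a11: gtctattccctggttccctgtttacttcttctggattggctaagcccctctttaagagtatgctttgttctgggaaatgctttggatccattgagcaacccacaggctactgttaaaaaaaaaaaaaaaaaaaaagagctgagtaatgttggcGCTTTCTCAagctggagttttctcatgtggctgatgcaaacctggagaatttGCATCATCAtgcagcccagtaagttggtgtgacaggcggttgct
Gclm: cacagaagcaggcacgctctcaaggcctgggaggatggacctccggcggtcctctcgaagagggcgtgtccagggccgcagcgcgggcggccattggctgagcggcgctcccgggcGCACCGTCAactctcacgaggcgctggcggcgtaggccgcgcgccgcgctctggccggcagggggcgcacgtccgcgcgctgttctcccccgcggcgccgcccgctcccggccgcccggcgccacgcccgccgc
Txnrd1: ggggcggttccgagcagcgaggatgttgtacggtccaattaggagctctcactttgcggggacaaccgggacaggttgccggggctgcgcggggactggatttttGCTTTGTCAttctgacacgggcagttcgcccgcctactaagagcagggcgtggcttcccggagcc
Prdx1: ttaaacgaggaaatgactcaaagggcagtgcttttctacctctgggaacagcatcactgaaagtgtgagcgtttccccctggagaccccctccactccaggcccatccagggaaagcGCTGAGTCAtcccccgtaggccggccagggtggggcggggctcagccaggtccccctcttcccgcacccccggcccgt

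The aCXCR2 library held 5551 barcodes and 85748842 UMIs (unique molecular identifiers, each standing for 1 captured RNA molecule), and the NRS library held 7314 barcodes and 61386486 UMIs. After filtering, 4826 aCXCR2 and 5655 NRS cells remained, with medians of 10383.5 and 4759 UMIs. Both libraries were labelled as Ly6G+ cells, but only part of the cells had neutrophil markers. Neutrophil-like clusters held 2504 aCXCR2 and 2162 NRS cells (51.9% and 38.2%), macrophage-like clusters 1765 and 603 (36.6% and 10.7%), photoreceptor-like clusters 214 and 666 (4.43% and 11.8%), and unnamed clusters 336 and 2209. Ly6g itself stood at 123 and 19.2 CPM (UMIs of the gene per 1000000 UMIs) in neutrophil-like cells and at 2.11 and 0.258 CPM in macrophage-like cells. The 12 neutrophil markers took 17.0% and 5.57% of UMIs in neutrophil-like cells, 0.446% and 0.220% in macrophage-like cells. Of the kept cells, 53 in each library carried a barcode that the other library also held.

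The classes were built of different clusters in the 2 libraries. Clusters 2, 9 and 11 gave 35.3%, 17.3% and 17.3% of the aCXCR2 neutrophil-like cells, while clusters 1, 4 and 7 gave 39.1%, 26.4% and 24.6% of those in NRS. Clusters 3 and 8 gave 43.7% and 32.4% of the aCXCR2 macrophage-like cells, and clusters 12, 3 and 10 gave 39.4%, 28.9% and 26.1% of those in NRS. Class values of the 10 genes are therefore followed by values within single clusters. Pathway genes are given mainly as class sums. The members and the related pathway genes were left out when clusters were made.

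**Figure D1:**
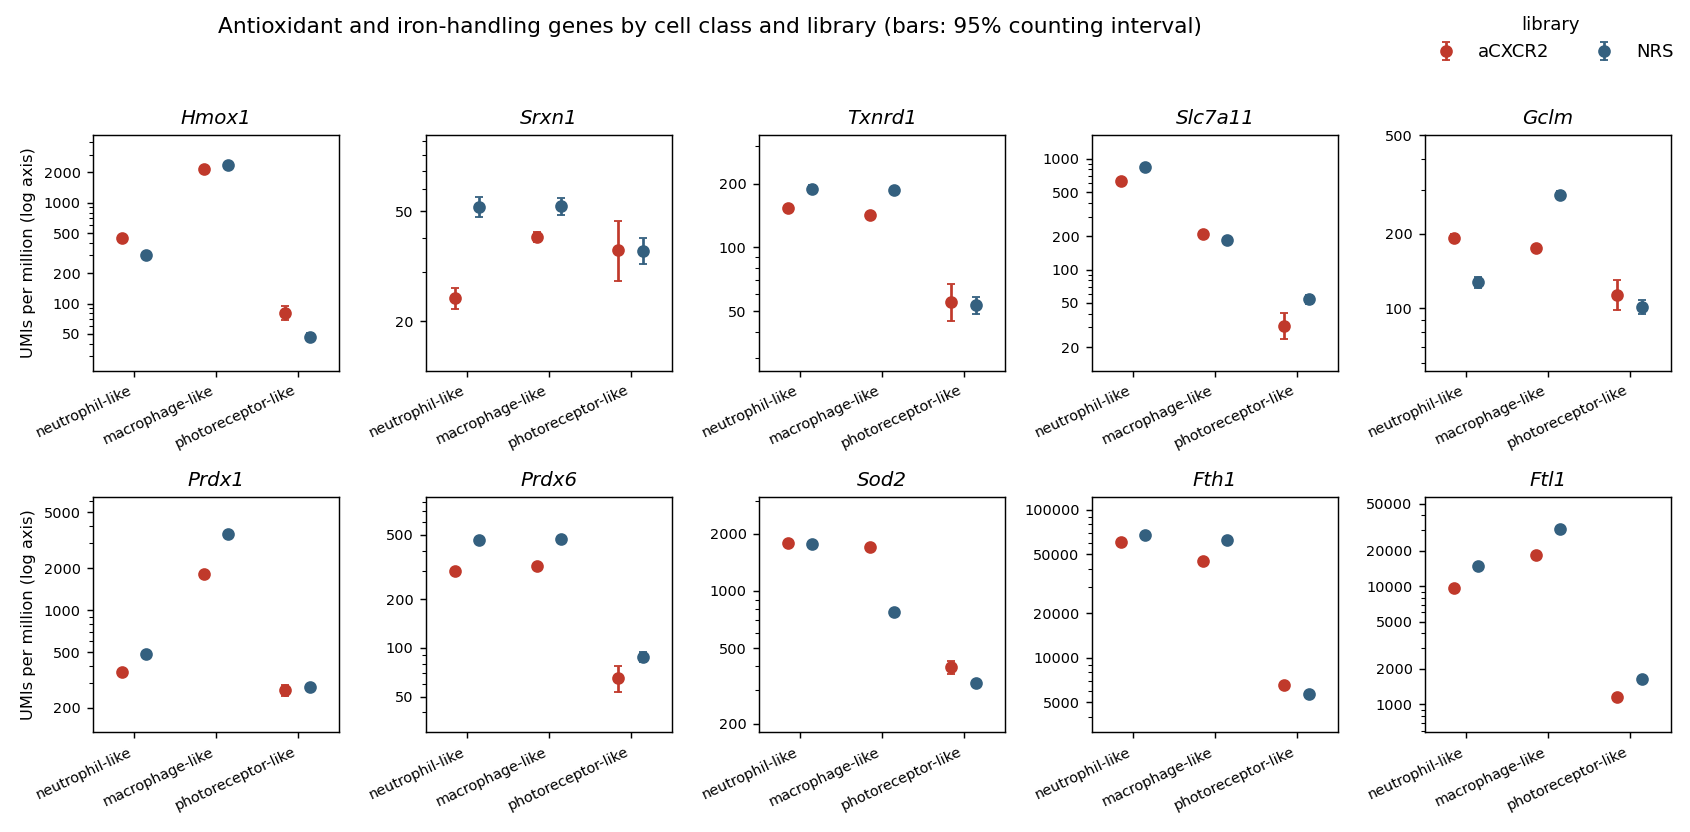
Level of each of the 10 genes (CPM, log axis) in neutrophil-like, macrophage-like and photoreceptor-like cells of the aCXCR2 (red, left) and NRS (blue, right) libraries, with 95% counting intervals. Hmox1 and Prdx1 were highest in macrophage-like cells, Slc7a11 in neutrophil-like cells, and Fth1 and Ftl1 were lowest in photoreceptor-like cells, in both libraries.

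Hmox1 was highest in macrophage-like cells as a class in both libraries. Within single clusters shared by the libraries it was the member most often at least 2-fold higher in aCXCR2. It stood at 2190 CPM in aCXCR2 and 2390 CPM in NRS macrophage-like cells, at 449 and 304 CPM in neutrophil-like cells, and at 81.1 and 46.6 CPM in photoreceptor-like cells. Macrophage-like cells supplied 90.8% of all aCXCR2 Hmox1 UMIs and 81.9% of those in NRS. The level between classes thus differed more than the level between libraries. The log2 ratio of aCXCR2 over NRS was -0.13 (interval -0.14 to -0.11) in macrophage-like cells, 0.56 (0.50 to 0.62) in neutrophil-like cells and 0.80 (0.52 to 1.07) in photoreceptor-like cells. All 3 signs were kept when libraries were scaled by TMM factors, with values of -0.13, 1.21 and 0.65. In photoreceptor-like cells, neutrophil markers took 1.11% of UMIs in aCXCR2 and 0.284% in NRS, and macrophage markers 0.0427% and 0.0395%. The source of the Hmox1 UMIs in these cells was not tested.

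Single clusters varied around these class values. In neutrophil-like cluster 4, led by Gadd45b, Ccl3, Prok2 and Hcar2, Hmox1 stood at 2146 CPM in 308 aCXCR2 cells and 689 CPM in 569 NRS cells, a log2 ratio of 1.64 (1.56 to 1.72). Over the cells of that cluster the median was 1314 CPM in aCXCR2 and 463 CPM in NRS, and the lower quartile in aCXCR2 (619 CPM) lay above the NRS median. In the other neutrophil-like clusters for which both libraries gave 50 cells or more, the values were close together, at 158 and 145 CPM in cluster 1, 159 and 191 CPM in cluster 2, and 190 and 169 CPM in cluster 7. Cluster 9, which held 17.3% of the aCXCR2 neutrophil-like cells, stood above the class level at 604 CPM in 433 aCXCR2 cells, against 218 CPM (161 to 287, from 50 UMIs) in 45 NRS cells. Cluster 11 stood at 118 CPM in 434 aCXCR2 cells and had 8 NRS cells. Of the 4 clusters with enough cells for a ratio, cluster 4 had the wide gap. When its cells were thinned to 1000 UMIs, 68.8% (63.2 to 74.0%) of aCXCR2 and 39.9% (35.8 to 44.1%) of NRS cells held an Hmox1 UMI, against 93.2% and 80.3% before thinning. In photoreceptor-like cells the thinned shares were 8.17% and 6.92%.

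Cluster 4 also differed in other ways between the libraries. Its cells had median depths of 7060 and 4611 UMIs, its neutrophil markers took 7.54% and 4.0% of UMIs, and the heat shock gene Hspa1a stood at 100 and 687 CPM. The part of these in the Hmox1 difference was not tested. The complement genes C1qa, C1qb and C1qc, markers of macrophages, summed to 66.0 CPM in aCXCR2 and 51.7 CPM in NRS there. The Hmox1 difference was as large with the highest doublet scores removed (1.64), and over all alternatives it lay between 1.43 and 1.90.

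Among macrophage-like clusters, cluster 3, led by Ccl8, Selenop, C1qa and Pf4, had 2671 CPM of Hmox1 in 772 aCXCR2 cells and 851 CPM in 176 NRS cells, a log2 ratio of 1.65 (1.6 to 1.70). The medians over cells lay closer together than the sums, at 740 and 524 CPM, and the 90th percentiles stood at 8166 and 1727 CPM. The gap in cluster 3 was therefore widest in its upper tail. Macrophage markers took 2.86% of UMIs in aCXCR2 and 5.40% in NRS cells of cluster 3. Their part in its Hmox1 difference was not tested. Cluster 12, led by Spp1, Gpnmb, Ctsd and Apoe, had the highest Hmox1 of any cluster in either library, at 5891 CPM in 122 aCXCR2 and 3432 CPM in 239 NRS cells (log2 0.78). Cluster 10, led by Cxcl3, Mmp12 and Arg1, went the other way, with 1885 CPM in aCXCR2 and 2380 CPM in NRS (log2 -0.34). Cluster 8 was low for a macrophage-like cluster, at 400 CPM in 571 aCXCR2 cells, below neutrophil-like clusters 4 and 9 of the same library. Cluster 12 made up 6.96% of aCXCR2 but 39.4% of NRS macrophage-like cells. When both libraries were weighted to the same mix of the 3 shared clusters, a summary added after the class values were seen, Hmox1 came to 3231 CPM in aCXCR2 and 1776 CPM in NRS (log2 0.86). This mix left out cluster 8, with 32.4% of the aCXCR2 macrophage-like cells. The same weighting over the 4 shared neutrophil-like clusters gave 581 and 279 CPM (log2 1.06).

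**Figure D2:**
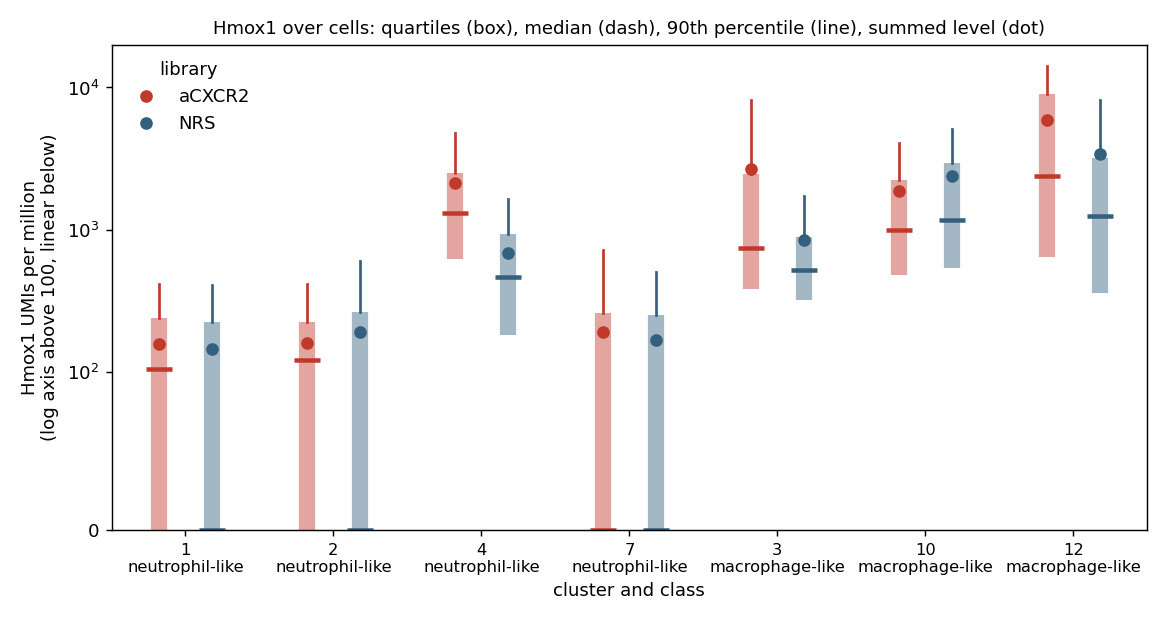
Hmox1 over the cells of 7 clusters present in both libraries, aCXCR2 (red) left of NRS (blue). Boxes span the quartiles, dashes mark medians, lines reach the 90th percentile and dots give the summed level, with 2146 and 689 CPM in cluster 4 and 2671 and 851 in cluster 3.

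Slc7a11, the cystine importer, had the reverse order of the 2 myeloid classes, with photoreceptor-like cells lowest as for Hmox1. It stood at 627 CPM in aCXCR2 and 838 CPM in NRS neutrophil-like cells, 209 and 185 CPM in macrophage-like cells, and 31.1 and 53.8 CPM in photoreceptor-like cells. Neutrophil-like cells exceeded macrophage-like cells in both libraries, by 1.58 on the log2 scale in aCXCR2 and by 2.18 in NRS. Among clusters it was highest in cluster 4, at 1424 CPM in aCXCR2 and 1271 CPM in NRS, and next in cluster 7, at 1167 and 1193 CPM. The class order did not hold for every cluster. Macrophage-like cluster 10, at 595 and 526 CPM, lay above neutrophil-like cluster 1, at 365 and 387 CPM. Between the libraries the neutrophil-like log2 ratio was -0.42 (-0.46 to -0.38), which became 0.23 with TMM factors. Within macrophage-like clusters it was higher in aCXCR2, at 119 and 51.0 CPM in cluster 3 (log2 1.22, 1.01 to 1.43) and 183 and 85.1 CPM in cluster 12 (log2 1.10, 0.95 to 1.25), and 595 and 526 CPM in cluster 10 (log2 0.18, and 0.05 with TMM factors).

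Gclm was also higher in aCXCR2 neutrophil-like cells, at 193 CPM in aCXCR2 and 127 CPM in NRS (log2 0.60, 0.51 to 0.69, and 1.25 with TMM factors). The sign was the same in all 4 neutrophil-like clusters shared by the libraries, from 0.29 in cluster 2 to 1.24 in cluster 1, where it stood at 249 and 105 CPM, though the intervals of clusters 2 and 7 included 0. After thinning, 14.1% (12.8 to 15.6%) of aCXCR2 and 8.58% (7.42 to 9.87%) of NRS neutrophil-like cells held a Gclm UMI, against 11.5% and 10.5% of photoreceptor-like cells. In macrophage-like cells Gclm was lower in aCXCR2, at 175 and 288 CPM (log2 -0.72). Within each of the 3 shared macrophage-like clusters it was not lower, with log2 ratios of 0.23, 0.08 and 0.74 in clusters 3, 10 and 12, of which the value in cluster 10 became -0.04 with TMM factors. Its highest level was in cluster 12, at 771 and 463 CPM.

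Srxn1 was the 1 member of 10 at least 2-fold apart in neutrophil-like cells, where 10.7% of all 3049 genes that reached 50 CPM in either library were as far apart. It was low throughout, at 24.2 CPM (543 UMIs) in aCXCR2 and 51.9 CPM (545 UMIs) in NRS neutrophil-like cells, a log2 ratio of -1.10 (-1.27 to -0.93) that came to -0.45 with TMM factors. The widest gaps were in cluster 2, at 15.3 and 52.2 CPM (log2 -1.77), and in cluster 7, at 9.60 and 32.9 CPM (log2 -1.78, -3.69 to -0.36). In cluster 4 the values were 72.4 and 80.0 CPM. After thinning, 2.30% of aCXCR2 and 4.48% of NRS neutrophil-like cells held an Srxn1 UMI, close to the 2.88% and 4.77% of photoreceptor-like cells. By level, the log2 ratio of neutrophil-like over photoreceptor-like cells was -0.58 (-0.95 to -0.18) in aCXCR2 and 0.53 (0.33 to 0.73) in NRS. The source of these UMIs was not tested. In macrophage-like cells Srxn1 stood at 40.3 and 52.1 CPM (log2 -0.37), and the direction turned with the cluster. Srxn1 was higher in aCXCR2 in cluster 12, at 122 and 61.6 CPM (log2 0.98), lower in cluster 10, at 39.5 and 53.7 CPM, and close in cluster 3, at 36.3 and 33.9 CPM. At the same mix of these 3 clusters the values were 56.5 CPM in aCXCR2 and 44.6 CPM in NRS (log2 0.34).

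Txnrd1 stood at similar levels in the myeloid classes of each library, while its difference between libraries varied with the cluster. It stood at 154 CPM in aCXCR2 and 189 CPM in NRS neutrophil-like cells (log2 -0.30, and 0.35 with TMM factors), and at 142 and 187 CPM in macrophage-like cells (log2 -0.39). The neutrophil-like level exceeded the macrophage-like level by 0.11 on the log2 scale in aCXCR2 and by 0.02 in NRS. Photoreceptor-like cells were lower, at 55.6 and 53.3 CPM. Within macrophage-like clusters Txnrd1 was higher in aCXCR2 in cluster 3, at 120 and 78.6 CPM (log2 0.61), and cluster 12, at 310 and 237 CPM (log2 0.38), and lower in cluster 10 (log2 -0.14). The same mix of these 3 clusters gave 179 CPM in aCXCR2 and 144 CPM in NRS (log2 0.32). In neutrophil-like cluster 2 it was lower, at 124 and 185 CPM (log2 -0.59, and -0.08 with TMM factors). Its widest gap was in cluster 13, of low depth, at 585 CPM (202 UMIs) in aCXCR2 and 124 CPM (46 UMIs) in NRS (log2 2.24). That ratio ran from 0.36 to 2.92 over 5 alternatives, and 48.8% of 3384 genes in cluster 13 were at least 2-fold apart.

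Prdx1 followed the macrophage-like cells. It stood at 1809 CPM in aCXCR2 and 3516 CPM in NRS macrophage-like cells, a log2 ratio of -0.96 (-0.97 to -0.94), and at 362 and 483 CPM in neutrophil-like cells (log2 -0.42, and 0.23 with TMM factors). The macrophage-like difference was not of one direction within clusters. Cluster 10 had 2190 and 3417 CPM (log2 -0.64), cluster 3 had 1492 and 1575 CPM (log2 -0.08, and 0.01 with TMM factors), and cluster 12 had the highest levels, 6327 and 4869 CPM (log2 0.38). At the same mix of these 3 clusters the levels were 2748 CPM in aCXCR2 and 2732 CPM in NRS (log2 0.01). Cluster 12 alone supplied 28.4% of aCXCR2 and 47.5% of NRS Prdx1 UMIs from 2.53% and 4.23% of the cells.

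Prdx6, which also has phospholipase activity, was lower in aCXCR2 in both myeloid classes, but not in every cluster. It stood at 298 and 464 CPM in neutrophil-like cells (log2 -0.64, -0.69 to -0.59, and 0.01 with TMM factors) and at 323 and 472 CPM in macrophage-like cells (log2 -0.55, -0.59 to -0.51). Within macrophage-like clusters it was higher in aCXCR2 in cluster 3 (200 and 139 CPM, log2 0.52) and cluster 12 (596 and 491 CPM, log2 0.28) and lower in cluster 10 (577 and 829 CPM, log2 -0.52). At the same mix of these 3 clusters it stood at 373 CPM in aCXCR2 and 372 CPM in NRS. After thinning, 22.5% (20.9 to 24.2%) of aCXCR2 and 34.2% (32.2 to 36.3%) of NRS neutrophil-like cells held a Prdx6 UMI, against 7.69% and 10.0% of photoreceptor-like cells. The near copy Prdx6b had 3 and 1 UMIs among all kept cells.

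Sod2 was the 1 member at least 2-fold apart in macrophage-like cells, where 4.49% of the 2851 genes tested were at least 2-fold higher in aCXCR2 and 7.02% were apart in either direction. It stood at 1704 CPM in aCXCR2 and 777 CPM in NRS macrophage-like cells, a log2 ratio of 1.13 (1.11 to 1.16), and at 1783 and 1763 CPM in neutrophil-like cells, where the ratio was 0.02 and became 0.66 with TMM factors. Within clusters the gap was widest in cluster 3, at 1592 and 540 CPM (log2 1.56, 1.5 to 1.62). Cluster 10 had 2134 and 1766 CPM (log2 0.27) and cluster 12 had 357 and 351 CPM (log2 0.02, and -0.02 with TMM factors). Cluster 8, led by S100a4, Cd74 and Ccr2, had 2085 CPM in 571 aCXCR2 cells, and 29 NRS cells were too few for a comparison. Cluster 8 held 32.4% of the aCXCR2 macrophage-like cells, and cluster 12, the low one, 39.4% of those in NRS. At the same mix of clusters 3, 10 and 12, Sod2 came to 1431 CPM in aCXCR2 and 768 CPM in NRS (log2 0.90). After thinning, 73.5% (71.4 to 75.6%) of aCXCR2 and 45.3% (41.3 to 49.5%) of NRS macrophage-like cells held a Sod2 UMI, against 23.6% and 26.3% of photoreceptor-like cells. The class ratio stayed positive under 9 alternatives, from 0.89 to 1.15.

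The ferritin chains made up most of the members' RNA. Fth1 took 6.09% of all UMIs in aCXCR2 and 6.77% in NRS neutrophil-like cells, 4.54% and 6.28% in macrophage-like cells, but 0.653% and 0.573% among photoreceptor-like cells. Ftl1 took 0.975% and 1.47%, 1.85% and 3.02%, and 0.114% and 0.164% in the same classes. Each was thus far more abundant in myeloid than in photoreceptor-like cells. The log2 ratios of Fth1 were -0.15 in neutrophil-like cells, which became 0.50 with TMM factors, and -0.47 in macrophage-like cells. Those of Ftl1 were -0.59, which became 0.05, and -0.71. In macrophage-like cells at the same mix of 3 clusters the values were 55095 and 54223 CPM for Fth1 (log2 0.02) and 24780 and 25338 CPM for Ftl1 (log2 -0.03). Fth1 was highest in neutrophil-like cluster 4, at 119174 CPM in aCXCR2 and 102963 CPM in NRS, and Ftl1 in macrophage-like cluster 12, at 48973 and 41341 CPM. Ftl1-ps1, a near copy of Ftl1 that may share reads with it, stood at 88.4 and 135 CPM in neutrophil-like cells and 147 and 218 CPM in macrophage-like cells.

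**Figure D3:**
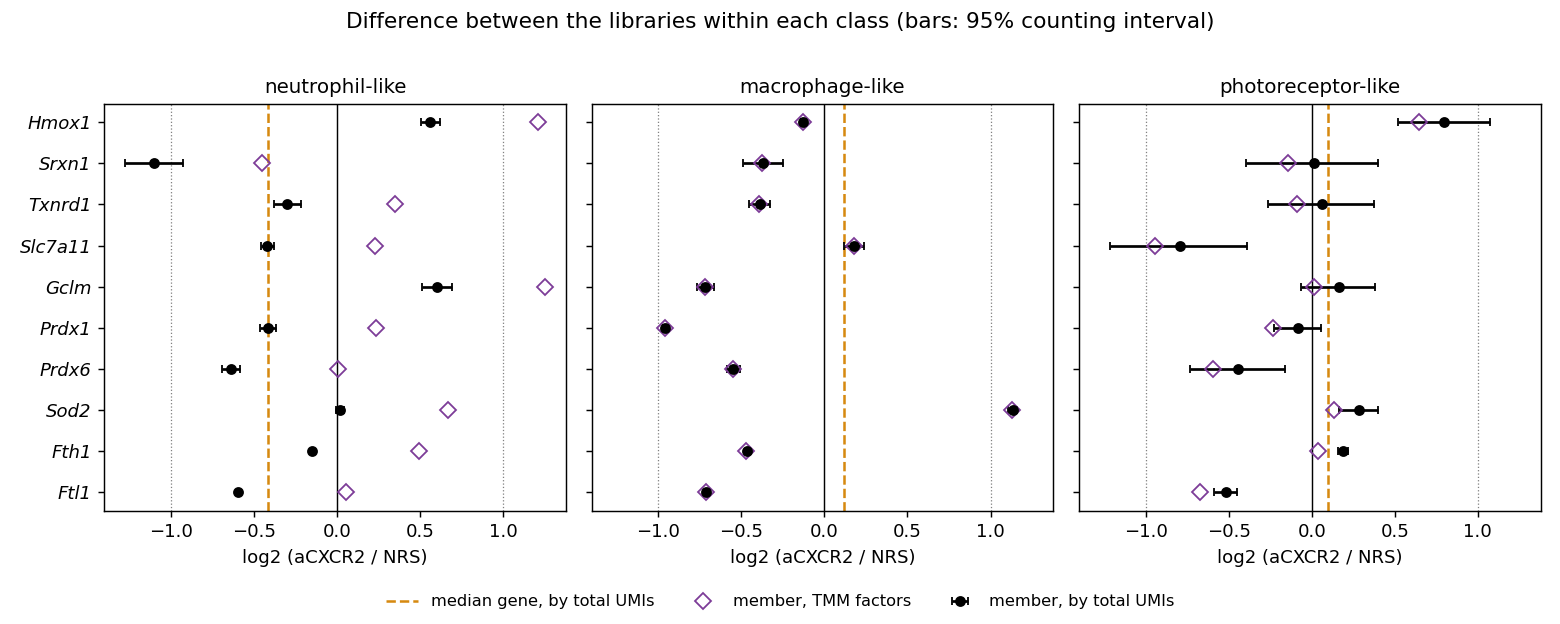
Log2 ratio of aCXCR2 over NRS for the 10 genes in 3 cell classes, scaled by total UMIs (dots, with 95% counting intervals) and by TMM factors (diamonds). The dashed line is the median gene, at -0.42 in neutrophil-like, 0.12 in macrophage-like and 0.10 in photoreceptor-like cells, and the dotted lines mark 2-fold.

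The 10 genes were also set beside all genes in these class comparisons. In neutrophil-like cells their median log2 ratio was -0.36, where the median gene stood at -0.42. TMM factors raised every neutrophil-like ratio by 0.65, which turned Txnrd1, Slc7a11, Prdx1, Prdx6, Fth1 and Ftl1 from lower to higher in aCXCR2, left Srxn1 lower, and put Hmox1 and Gclm past 2-fold. In macrophage-like cells their median was -0.43, where the median gene stood at 0.12, 2 of the 10 lay above that gene, and TMM factors moved the ratios by less than 0.01. In photoreceptor-like cells 0 of the 10 were 2-fold apart, as were 2.59% of 4516 genes, with Hmox1 (log2 0.80) and Slc7a11 (log2 -0.79) the farthest. In all kept cells 0 of the 10 were 2-fold apart, as were 15.9% of 3550 genes, and Hmox1 stood at 1603 and 951 CPM (log2 0.75).

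Within the 12 clusters that had at least 50 cells in each library, Hmox1 was at least 2-fold higher in aCXCR2 in clusters 0, 3, 4, 5 and 6. It was at least 2-fold lower in none of the 12. In cluster 4, 2 of 10 members were at least 2-fold higher (Hmox1 and Gclm), as were 1.63% of 2764 genes. In cluster 3, 3 members were (Hmox1, Sod2 and Slc7a11), as were 3.94% of 2946 genes. In cluster 12, 1 member was (Slc7a11), as were 0.397% of 2519 genes. In the unnamed cluster 0, led by Itpr2, Gadd45b, Ccrl2 and Gdf15, 3 members were (Gclm, Prdx1 and Hmox1), as were 1.08% of 3336 genes. Cluster 0 held 89 aCXCR2 and 1273 NRS cells, and its neutrophil markers took 0.732% and 0.498% of UMIs. In it Gclm stood at 463 and 187 CPM, Prdx1 at 2774 and 1174 CPM, and Hmox1 at 718 and 349 CPM. In cluster 1, 1 member was higher (Gclm), as were 1.19% of 3284 genes, and in cluster 5, 1 member (Hmox1, 91.8 and 39.2 CPM, from 85 and 312 UMIs), as were 0.896% of 4129 genes. Neutrophil markers took 0.791% and 0.265% of UMIs in photoreceptor-like cluster 5, and the source of its Hmox1 UMIs was not tested. Srxn1 was the 1 member at least 2-fold lower in cluster 2, as were 6.95% of 3037 genes. It was also the 1 such member in cluster 7, where 4.59% of 2769 genes were. There, at 9.60 and 32.9 CPM, it did not reach the 50 CPM that those genes had in 1 library or both. Cluster 6, which mixed rod and neutrophil markers, had Hmox1 at 765 and 296 CPM (log2 1.37), as far apart as 3.01% of 3784 genes, but the top 10% of its cells held 92.0% of its aCXCR2 Hmox1 UMIs and the sign turned (log2 -0.78) without the highest doublet scores. In cluster 10, 0 members were 2-fold apart, as were 1.93% of 2847 genes. In photoreceptor-like cluster 14, Slc7a11 was the 1 member at least 2-fold lower, as were 1.01% of 5226 genes. In cluster 13, of low depth, 3 members were at least 2-fold apart, as were 48.8% of 3384 genes. Cells were few in 1 library for several of these clusters.

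**Figure D4:**
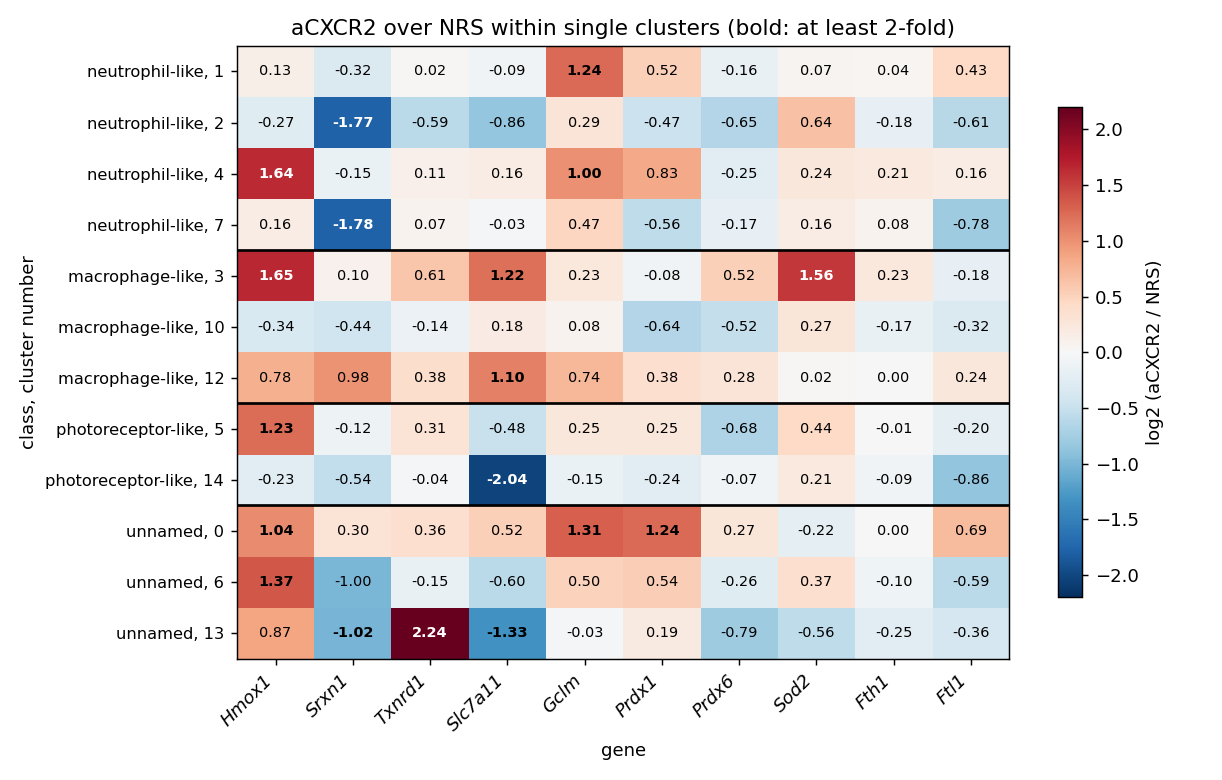
Log2 ratio of aCXCR2 over NRS for each gene within 12 clusters of at least 50 cells per library, grouped by class, with ratios of at least 2-fold in bold. Hmox1 reached 1.65 in cluster 3 and 1.64 in cluster 4, and Srxn1, at 9.60 and 32.9 CPM, reached -1.78 in cluster 7.

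Across the 29 profiles, each a cluster in 1 library with at least 50 cells, Hmox1 varied the most of the 10, from 39.2 CPM (cluster 5, NRS) to 5891 CPM (cluster 12, aCXCR2), a 150-fold range. Prdx1 ranged 115-fold, from 55.0 CPM in cluster 11 to 6327 CPM in cluster 12. Slc7a11 ranged 46.3-fold and Ftl1 45.4-fold, while Sod2 ranged the least, 9.60-fold, from 275 to 2641 CPM. The highest profile was cluster 12 of aCXCR2 for Hmox1, Srxn1, Gclm, Prdx1 and Ftl1, and cluster 4 of aCXCR2 for Slc7a11, Sod2 and Fth1. Cluster 12 was low in Slc7a11 and Sod2, so the 10 genes did not share a single high profile.

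**Figure D5:**
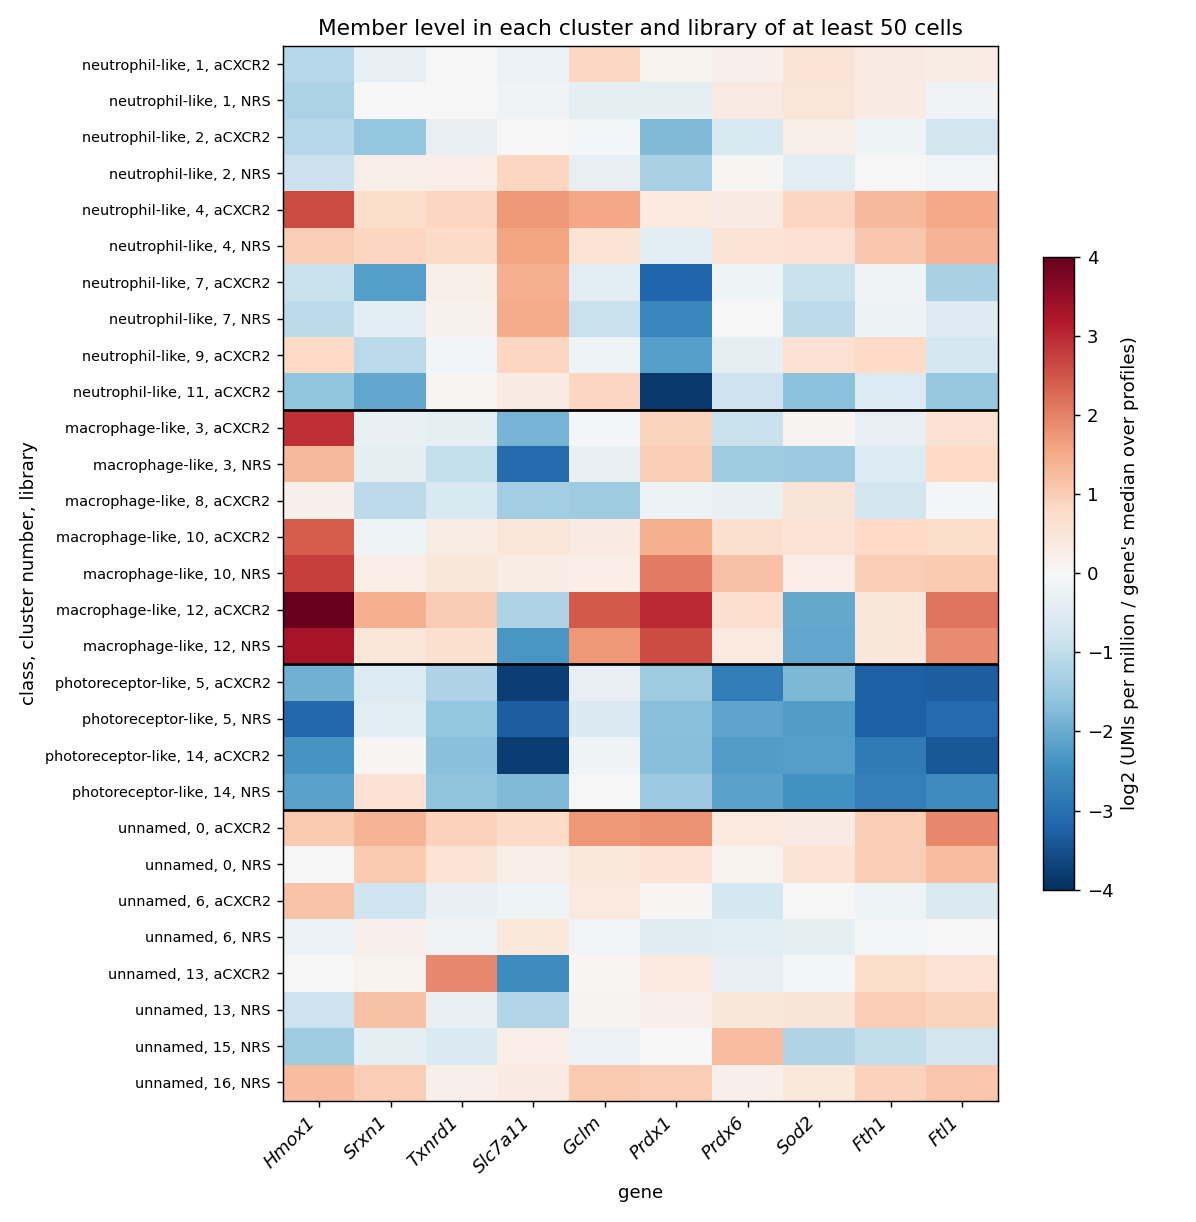
Level of each gene in 29 cluster-by-library profiles, as log2 of CPM over that gene's median across profiles, grouped by class with aCXCR2 above NRS. Cluster 12 was high for Hmox1 (5891 and 3432 CPM) and Prdx1 (6327 and 4869), cluster 4 for Slc7a11 (1424 and 1271) and Fth1 (119174 and 102963), and both photoreceptor-like clusters were low for the ferritins.

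Correlations over these 29 profiles describe how the genes vary together. The profiles share 2 libraries and their free RNA, and library totals. Fth1 and Ftl1 had a Pearson r of 0.88 on log2(CPM + 10), Fth1 had 0.83 with both Prdx6 and Txnrd1, and Hmox1 had 0.79 with Ftl1 and 0.77 with Prdx1. Slc7a11 had -0.13 with Prdx1 and 0.18 with Hmox1. Among 7392 genes, the 5 most like Hmox1 were Soat1 (0.89), the cathepsin genes Ctsb (0.88) and Ctsz (0.87), Lat2 (0.86) and Galnt6 (0.85). Those most like Slc7a11 were Slpi (0.92), Smim3 (0.92), Bhlhe40 (0.91), Gsap (0.89) and Cd44 (0.89). Those most like Fth1 were Atp6v0e (0.95), the thioredoxin gene Txn1 (0.94), the lipid droplet gene Plin2 (0.93), the galectin gene Lgals3 (0.93) and Rbpms (0.93). Those most like Srxn1 were Rragc (0.86), Atp6v1c1 (0.86), Naa50 (0.84), Mcfd2 (0.84) and Atp6v1d (0.83).

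The genes that control this response were measured in the same classes. These and the other pathway values below are sums over a class, not values within clusters. The classes were built of different clusters in the 2 libraries, and the part of this in the pathway ratios was not tested. In neutrophil-like cells the NRF2 gene Nfe2l2 stood at 324 CPM in aCXCR2 and 398 CPM in NRS (log2 -0.29), its inhibitor Keap1 at 25.6 and 38.7 CPM (log2 -0.59), the repressor Bach1 at 126 and 125 CPM (log2 0.02) and the partner Maff at 41.5 and 68.0 CPM (log2 -0.71). TMM factors add 0.65 to each, which turns Nfe2l2 and Keap1 positive. Of the NRF2 control genes, 10 reached 10 CPM in either library, and 0 were over 1.5-fold higher and 3 over 1.5-fold lower, where 3.66% and 46.2% of all 7103 such genes were. With TMM factors these counts were 1 higher and 0 lower, where 1250 and 549 of all 7103 genes were. Rbx1, of the ubiquitin ligase that acts with Keap1, stood at 236 and 378 CPM (log2 -0.68), and Nfe2l1 at 50.2 and 59.7 CPM. In macrophage-like cells 0 of 10 passed that fold in either direction, where 7.90% and 5.80% of 7568 genes did, with Nfe2l2 at 237 and 190 CPM. The NRF2 target Nqo1 was near its floor, at 7.88 and 14.5 CPM in neutrophil-like and 1.12 and 2.0 CPM in macrophage-like cells.

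Of 14 measured glutathione genes, 3 were over 1.5-fold higher and 6 over 1.5-fold lower in aCXCR2 neutrophil-like cells, where 3.66% and 46.2% of all genes were. With TMM factors 5 were higher and 1 lower, where 1250 and 549 of all 7103 genes were. The glutaredoxin gene Glrx stood at 227 and 120 CPM (log2 0.93) and Mgst1, a microsomal glutathione transferase, at 222 and 126 CPM (log2 0.81). The catalytic partner of Gclm, Gclc, was low and went the other way, at 11.4 and 26.7 CPM (log2 -1.22). Slc3a2, the heavy chain that carries Slc7a11 to the membrane, stood at 219 and 357 CPM (log2 -0.71), and Gpx4, which reduces lipid peroxides, at 358 and 614 CPM (log2 -0.78). The mitochondrial glutaredoxin gene Glrx5 stood at 32.9 and 62.3 CPM (log2 -0.92). Of 10 thioredoxin and peroxiredoxin genes, 0 were higher and 4 lower, against the same shares of all genes. With TMM factors 4 were higher and 0 lower, again where 1250 and 549 of all 7103 genes were. Prdx5 stood at 3633 and 2446 CPM (log2 0.57), a 1.49-fold difference. The mitochondrial thioredoxin gene Txn2 stood at 37.4 and 64.2 CPM (log2 -0.78), the thioredoxin inhibitor gene Txnip at 818 and 1079 CPM (log2 -0.40, positive with TMM factors), and the methionine sulfoxide reductase gene Msra at 102 and 80.3 CPM (log2 0.34). In macrophage-like cells 0 of 16 glutathione genes were higher and 5 lower, where 7.90% and 5.80% of all genes were, and Gclc stood at 22.9 and 23.2 CPM.

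Several genes of iron uptake and of iron binding outside the cell lay farther apart between the libraries than the ferritin chains. Of 12 iron genes measured in neutrophil-like cells, 1 was over 1.5-fold higher and 7 were lower, where 3.66% and 46.2% of all genes were. With TMM factors 2 were higher and 2 lower, where 1250 and 549 of all 7103 genes were. The metalloreductase gene Steap4 was the higher one, at 395 CPM in aCXCR2 and 137 CPM in NRS (log2 1.53, 1.45 to 1.61). As a class sum, the transferrin receptor gene Tfrc was lower in aCXCR2, at 19.4 and 49.6 CPM in neutrophil-like cells (log2 -1.35) and 13.3 and 78.5 CPM in macrophage-like cells (log2 -2.56). The iron exporter gene Slc40a1 stood at 64.2 and 69.3 CPM (log2 -0.11, positive with TMM factors) in neutrophil-like cells and 52.7 and 86.6 CPM (log2 -0.72) in macrophage-like cells. The iron chaperone genes Pcbp1 and Pcbp2 stood at 156 and 240 CPM (log2 -0.63) and at 157 and 292 CPM (log2 -0.89) in neutrophil-like cells, of which Pcbp1 turned positive with TMM factors. Fbxl5, which senses iron, stood at 562 and 446 CPM there (log2 0.33) and at 306 and 152 CPM in macrophage-like cells. Of 3 genes of iron binding outside the cell, 0 were higher and 1 lower, and 2 were higher with TMM factors. Lcn2, which binds bacterial siderophores, stood at 15912 and 10825 CPM in neutrophil-like cells (log2 0.56), and lactoferrin, Ltf, at 39.8 and 124 CPM (log2 -1.63). The transferrin gene Trf stood at 102 and 72.7 CPM (log2 0.49). Of 7 heme and bile pigment genes 1 was higher and 5 lower, and 0 were lower with TMM factors. The haptoglobin gene Hp stood at 3442 and 1792 CPM in neutrophil-like (log2 0.94) and 1750 and 634 CPM in macrophage-like cells (log2 1.47), and the biliverdin reductase gene Blvrb, next to Hmox1 in heme breakdown, at 92.2 and 144 CPM and 455 and 484 CPM in these classes. Alas1, the first enzyme of heme synthesis, stood at 242 and 273 CPM in neutrophil-like cells, and the heme transporter gene Slc48a1 at 37.9 and 57.0 CPM.

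Stress genes outside the NRF2 set were lower in aCXCR2 neutrophil-like cells. All 7 measured were over 1.5-fold lower, where 46.2% of all 7103 genes were. Their median log2 ratio was -1.11 where the median gene stood at -0.54. With TMM factors 3 of the 7 were lower, where 549 of all 7103 genes were. Atf4 stood at 143 and 224 CPM (log2 -0.64) and Dnajb1 at 32.4 and 50.9 CPM (log2 -0.65), both near 0 with TMM factors. Hspa1a stood at 20.3 CPM in aCXCR2 and 218 CPM in NRS (log2 -3.42) and Hspa1b at 23.4 and 178 CPM (log2 -2.93). In macrophage-like cells these 2 were at 22.5 and 12.6 CPM and at 23.7 and 8.65 CPM. Of the 6 NADPH oxidase genes, whose enzyme makes superoxide in phagocytes, 0 passed 1.5-fold in neutrophil-like cells, with a median log2 ratio of 0.07. TMM factors raised this median to 0.72, with 4 of the 6 higher, where 1250 of all 7103 genes were. Rac2 stood at 1597 and 1320 CPM, Ncf4 at 707 and 658 CPM, Cybb at 290 and 318 CPM and Ncf1 at 512 and 618 CPM.

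The last lists gave few differences in neutrophil-like cells when scaled by total UMIs. Of 8 genes that make NADPH or reduce quinones, 0 were over 1.5-fold higher and 3 lower there, where 3.66% and 46.2% of all genes were. With TMM factors 4 were higher and 0 lower, where 1250 and 549 of all 7103 genes were. The pentose phosphate genes Tkt and Taldo1 stood at 156 and 136 CPM and at 734 and 724 CPM, Aldh2 at 85.4 and 90.4 CPM, and Osgin1, an oxidative stress gene, at 65.2 and 98.2 CPM. Aldh2 was farther apart in macrophage-like cells, at 208 and 449 CPM. Of 6 lipid peroxidation genes 0 passed the fold in either direction, against the same shares of all genes, and 2 were higher with TMM factors. The lipoxygenase activator gene Alox5ap stood at 1001 and 705 CPM (log2 0.51), Alox5 at 64.2 and 68.0 CPM and Sat1, of polyamine breakdown, at 617 and 576 CPM. Of the 4 genes of superoxide and peroxide removal outside the 10, 1 reached 10 CPM in neutrophil-like cells. It was Sod1, the cytosolic superoxide dismutase gene, named after its value was seen, at 26.0 and 44.4 CPM (log2 -0.77, and -0.12 with TMM factors).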

How the data were processed

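Single-cell RNA sequencing was made of 2 droplet libraries, aCXCR2 and NRS, grouped by their labels. The authors deposited tables of UMI counts, whole numbers that had not been normalized, per the file headers (software version 3.0.0). Cell Ranger and Seurat are named, without versions, per the submitters' processing notes. Those notes list the human build GRCh38, while the gene identifiers are mouse, and the mouse build behind the counts was not given there. No column was left unused (0).

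Kept barcodes had 500 UMIs or more, 200 genes or more and no more than 10% of UMIs from mitochondrial genes (scanpy 1.11.5, Python 3.11.15). The 22 barcodes with over 1% haemoglobin-gene UMIs were set aside from the classes. The doublet caller marked 4 and 0 cells in aCXCR2 and NRS and so had not worked. As an alternative the 186 and 256 highest scores were removed. Cells of both libraries were clustered together on 2000 variable genes, without the 10 genes and the pathway lists, with 30 components, 15 neighbours and Leiden resolution 1 (leidenalg 0.10.2), into 19 clusters. A cluster was named "like" a class from marker lists when its mean log2 marker score over the 25th percentile of clusters was at least 0.5 and no second class came near. The rule for this score was chosen with the data in view. The members, marker lists and pathway lists were chosen with earlier results of these data known.

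UMIs were summed per library and class or cluster and divided by the total (CPM). Levels have exact Poisson intervals, log2 ratios of aCXCR2 over NRS exact conditional intervals, and shares of cells Clopper-Pearson intervals, all at 95% and covering counting error only. With 1 library a group there was no test. Members past 2-fold were set beside all genes with 50 CPM or more in either library, and pathway genes past 1.5-fold beside those with 10 CPM or more. TMM and median of ratios factors came from edgeR 4.0.16 (R 4.3.3). For shares of cells with a UMI, each cell was thinned to 1000 UMIs, leaving out shallower cells. The ratio step was tested on simulated data. All 10 members are named, and from each pathway list up to 4 genes, those with the 2 largest and 2 smallest neutrophil-like ratios among genes with 50 CPM or more, beside 10 genes always named. Promoter windows came from the RefSeq table (GRCm38.p6), and exons and gene positions from GENCODE on the same assembly. Alternatives changed the cell filter, doublets, scaling, weight of cells, resolution, clustering genes, class membership, minima, thinning depth and prior. 1 result on free RNA is not reported here.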

Additional observations from a re-analysis of the deposited data

Results flagged for a closer look

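Slc7a11 moved in opposite directions in clusters that each held at least 50 cells per library, which singled these values out. In macrophage-like cluster 3 its log2 ratio of aCXCR2 over NRS was 1.22 (119 and 51.0 CPM, 0.82 to 1.32 over 5 alternatives), and in macrophage-like cluster 12 it was 1.10 (183 and 85.1 CPM, 0.71 to 1.14). In unnamed cluster 13 it was -1.33 (75.3 CPM in 64 aCXCR2 and 189 CPM in 215 NRS cells, -1.54 to -0.19). Cells of cluster 13 had median depths of 2060 and 1056 UMIs. The median gene of that cluster stood at -0.70, and 34.3% of its 3384 genes were at least 2-fold lower in aCXCR2. TMM factors add 0.68 to each ratio there. In photoreceptor-like cluster 14 the Slc7a11 ratio was -2.04 (30.8 CPM in 81 aCXCR2 and 126 CPM in 63 NRS cells, -2.51 to -1.18). Neutrophil markers took 1.15% and 0.365% of UMIs in cluster 14, and their part in the value was not tested. The difference between the clusters was not tested, since each group is 1 library.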

How the results depend on the processing

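No paired analysis was possible because each group has 1 library, and for the same reason no library could be left out. Scaling moved the neutrophil-like values most. The median log2 ratio of the 10 genes in neutrophil-like cells, -0.36 with total UMIs, was 0.29 with TMM factors, 0.32 with median of ratios factors, -0.27 with the strict filter (1000 UMIs, 500 genes, 5% mitochondrial) and -0.48 without cluster 1, which had the lowest neutrophil score. The number at least 2-fold apart was 2 in place of 1 with either set of factors. With TMM factors 247 of all 3049 genes were at least 2-fold higher there and 24 at least 2-fold lower. In macrophage-like cells the median, -0.43, was -0.53 with the strict filter and -0.35 as a mean over cells, and the number 2-fold apart was 0 in place of 1 in both. In photoreceptor-like cells that number was 1 in place of 0 without the highest doublet scores, as a mean over cells, at resolution 0.5 and without barcodes found in both libraries. That class did not form under the strict filter. In all kept cells the median, -0.19, was -0.36 with the strict filter, 0.34 with TMM factors and 0.40 with median of ratios factors. It was -0.22 as a mean over cells and -0.29 without shared barcodes. The number 2-fold apart was 2 in place of 0 with either set of factors and as a mean over cells. With TMM factors 530 of all 3550 genes were at least 2-fold higher there and 253 at least 2-fold lower. Hmox1 in cluster 6, 1.37, was -0.78 without the highest doublet scores and -0.026 as a mean over cells. Beyond the scaling shift itself, the cause of these changes was not tested. Ratios of single members changed sign in 50 of 330 alternatives in classes and 50 of 600 in clusters. Of all genes in neutrophil-like cells, 260 were over 1.5-fold higher and 3279 lower at 10 CPM, 1250 and 549 with TMM factors, 136 and 1055 at 50 CPM, and 2144 and 9472 with no minimum. The alternatives without shared barcodes, with unnamed cluster 0 added and within clusters were chosen after seeing the data. Cluster 0 held 1.84% of aCXCR2 and 22.5% of NRS cells. Over 11 alternatives the neutrophil-like log2 ratio kept its sign for Hmox1 (0.23 to 1.24), Gclm (0.36 to 1.28) and Srxn1 (-1.36 to -0.42). It changed sign for the other members, as for Prdx1 (-0.82 to 0.27) and Ftl1 (-0.99 to 0.09). Depth differed between the libraries, so shares of cells are read only after thinning.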
